A study of Homo sapiens with 4 samples.

Results

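The genes described here are 8 components of DNA mismatch repair and base excision repair, pathways long studied as sensitive to cadmium: MSH3, MSH6, PMS2 and EXO1 on the mismatch side and OGG1, APEX1, XRCC1 and PARP1 on the base excision side. They were selected by symbol, through Ensembl identifiers, from the 61541 genes of the count table, and 8 of 8 passed the filter on low counts. RNA-seq was performed on MDA-MB-231, an established human breast cancer line, with 2 libraries from parental cells passaged in ordinary medium and 2 from a cadmium-resistant line passaged in CdSO4 and kept at 10 µM. Control libraries are named control 2 and control 3 after their numbers in the table, and the others are cadmium 1 and cadmium 2. Nothing in the labels says that the resistant line was derived more than once, so the spread between its libraries may describe 1 selected population.

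Mismatch repair removes bases that DNA polymerase has paired wrongly. A MutS dimer recognises the mismatch, a MutL dimer that contains PMS2 nicks the new strand, and the exonuclease EXO1 degrades it before resynthesis. Base excision repair deals with damaged single bases: a glycosylase such as OGG1, which removes oxidised guanine, leaves an abasic site, APEX1 cuts the backbone there, and XRCC1 and PARP1 gather the enzymes that close the break. Cadmium is known to raise oxidative damage and to displace zinc from proteins, and PARP1 carries zinc fingers.

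The metal response element is the DNA sequence through which MTF-1, the factor at the centre of the study, is known to act, so the 250 bases before the RefSeq start of each member (GRCh38.p14, the same assembly as hg38) were searched for its core, spelled TGCACNC or TGCGCNC, on both strands. A match was found in MSH6, OGG1, APEX1 and XRCC1 and none in MSH3, PMS2, EXO1 or PARP1, while 24.8% of the 35116 RefSeq windows of this length held 1 or more. The window of MT2A, a metallothionein gene and classical MTF-1 target, held 7 matches. The AP-1 site TGANTCA was searched because FOS and JUN motifs belong to the study's question. It was in none of the 8 members' windows and in 6.57% of all windows. The paper reports that MTF-1 binding changed mainly far from gene starts, which these windows do not cover. An E2F site, spelled TTTCCCGC or TTTGGCGC, occurs in promoters of S-phase genes, was present in 1.93% of all windows and was found in MSH3 alone among the members. The windows with a metal response element core are printed with the core in capitals, because MTF-1 is the factor the study is about. They lie on the strand of the gene at chr2:47782895-47783144 (MSH6, plus), chr3:9749702-9749951 (OGG1, plus), chr14:20454976-20455225 (APEX1, plus) and chr19:43575528-43575777 (XRCC1, minus). A match describes letters and is not evidence of binding. The paper cites reports that MTF-1 bound consensus elements with excess zinc but not with cadmium. It also saw no enrichment of the MTF-1 motif listed in JASPAR, which it doubts is a true one.
MSH6: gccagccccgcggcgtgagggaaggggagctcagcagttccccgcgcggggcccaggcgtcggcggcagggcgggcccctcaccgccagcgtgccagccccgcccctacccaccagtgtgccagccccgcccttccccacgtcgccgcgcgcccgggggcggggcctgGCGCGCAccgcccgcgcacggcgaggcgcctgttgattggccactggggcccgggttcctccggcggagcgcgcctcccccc
OGG1: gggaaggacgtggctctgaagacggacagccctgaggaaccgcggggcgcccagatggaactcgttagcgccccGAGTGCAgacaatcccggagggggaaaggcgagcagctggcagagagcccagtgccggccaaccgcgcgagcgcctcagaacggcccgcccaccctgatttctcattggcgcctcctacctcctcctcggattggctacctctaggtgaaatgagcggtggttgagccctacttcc
APEX1: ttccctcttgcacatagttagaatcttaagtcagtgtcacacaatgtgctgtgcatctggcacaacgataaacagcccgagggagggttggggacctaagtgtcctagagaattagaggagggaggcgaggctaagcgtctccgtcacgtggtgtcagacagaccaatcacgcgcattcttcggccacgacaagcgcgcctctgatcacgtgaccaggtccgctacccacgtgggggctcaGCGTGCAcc
XRCC1: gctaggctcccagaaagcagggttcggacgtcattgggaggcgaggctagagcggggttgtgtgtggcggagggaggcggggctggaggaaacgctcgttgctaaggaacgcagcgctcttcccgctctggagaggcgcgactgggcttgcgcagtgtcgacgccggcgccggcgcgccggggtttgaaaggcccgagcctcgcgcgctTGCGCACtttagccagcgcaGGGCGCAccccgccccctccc

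Libraries held 51934729 to 61916007 reads assigned to genes, and the members were counted at depths of 634 to 23689 reads per library. The controls were less alike than the cadmium libraries: over the 19834 genes tested, the log2 ratio within the control pair had a median size of 0.49 and that within the cadmium pair 0.17. Over the 9956 of them with a mean of 500 normalized counts or more these were 0.35 and 0.097, and over the members 0.20 and 0.066. The line's mesenchymal markers VIM, CD44, AXL and FN1 summed to 2389 to 2434 TPM, a count scaled for gene length and library size, against 35.5 to 94.6 TPM for 6 luminal and epithelial markers, with control 2 the highest. EPCAM held 71.9 of the 94.6 TPM in control 2, whereas CDH1 was higher in control 3, at 7.91 against 1.27 TPM. In RNA from whole cultures, fewer cells expressing a gene and less RNA per cell cannot be told apart.

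The comparison asked whether resistant cells carried more or less mRNA of these repair genes. DESeq2 called none of the 8 members at an adjusted p-value below 0.1, the threshold used throughout, where 1.13% of all genes tested were called (0.600% higher and 0.534% lower, 119 and 106 genes). That split was 152 and 88 with upper-quartile factors and 107 and 130 once a trend with gene length was removed. None of the members had an unadjusted p-value below 0.05 by DESeq2, edgeR or limma-voom, where DESeq2 gave one to 6.92% of the genes tested, and both latter tests called 0 genes in the whole table, with 1408 and 1403 of the genes tested at an unadjusted p-value below 0.05. The estimated log2 fold changes ran from -0.53 for PMS2 to 0.23 for APEX1, with 6 of 8 below zero and a median of -0.28. The median was -0.023 over all genes tested, of which 10424 were below zero. It was -0.066 over the 9956 more abundant ones, of which 5902 were below zero. The members' lean depended on control 2, without which MSH6, OGG1 and PARP1 were at 0.022, -0.064 and -0.058. Without control 3 they were at -0.55, -0.47 and -0.51. The cadmium pair did not overlap the control pair for 5 members, of which 2 were higher and 3 lower, and this held for 40.3% of all genes tested (20.3% above the controls and 19.9% below) and for 41.9% of the more abundant ones (17.0% above and 24.9% below). With 2 libraries a group, the 95% intervals of the fold changes still reached from 0.470 to 1.62 times control across the members, so modest changes in either direction were not detectable.

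**Figure D1:**
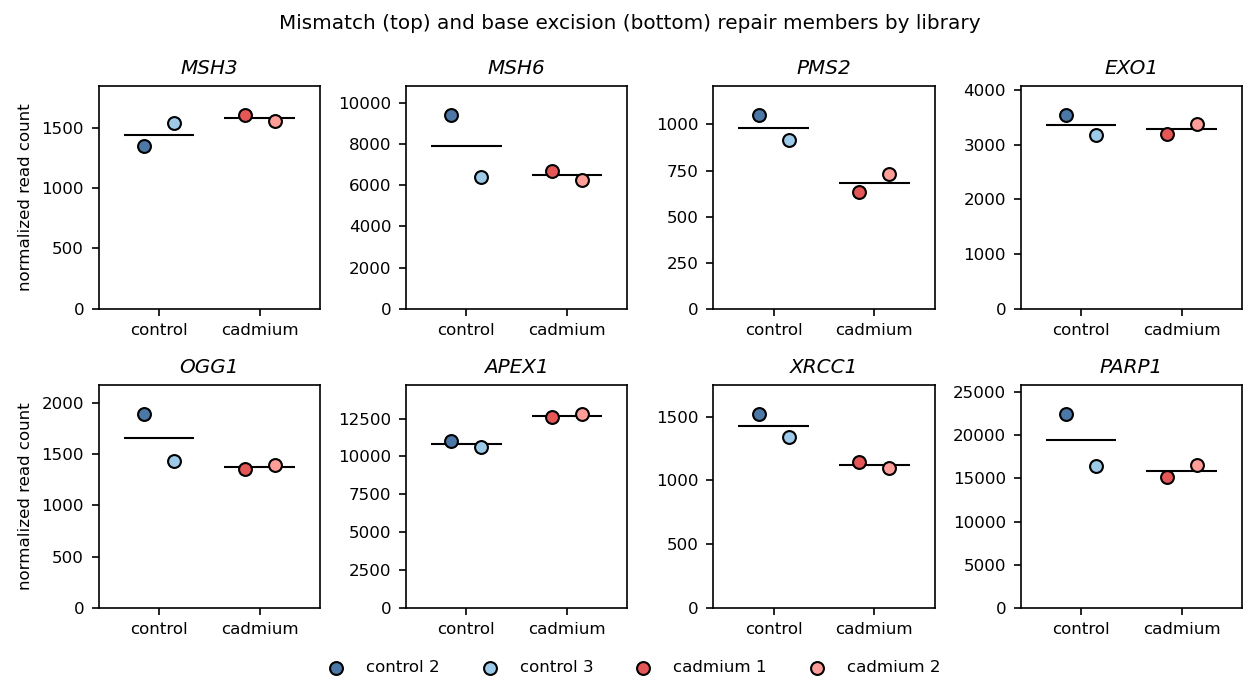
Normalized read count (vertical axis, from 0) of each member in each library; points are libraries, coloured by library, and horizontal lines are the means of the 2 libraries of a group. PMS2 and XRCC1 were lower and APEX1 higher in both cadmium libraries, while MSH6, OGG1 and PARP1 were set apart mainly by control 2.

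Among the mismatch recognition genes, MSH6 and MSH3 encode subunits of alternative MutS dimers. MSH6, whose dimer recognises single mismatches and short loops (ENSG00000116062, chromosome 2, 47695530 to 47810063, hg38, plus strand), had normalized counts of 9423 and 6389 in controls 2 and 3 and of 6718 and 6275 in cadmium 1 and 2. Control 2 stood alone and control 3 lay between the cadmium libraries. The log2 fold change was -0.28 (standard error 0.30, 95% interval -0.88 to 0.31, DESeq2 adjusted p-value 1.00). Without control 2 it was 0.022, and without control 3 it was -0.55.

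MSH3, whose dimer recognises larger loops (ENSG00000113318, chromosome 5, 80654652 to 80876815, plus strand), had normalized counts of 1346 and 1541 in controls 2 and 3 and of 1606 and 1559 in cadmium 1 and 2. Both cadmium libraries were above both controls, but control 3 lay within 0.017 log2 units of cadmium 2. The log2 fold change was 0.13 (standard error 0.26, 95% interval -0.38 to 0.65, DESeq2 adjusted p-value 1.00). It was 0.037 without control 2 and 0.22 without control 3.

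Because the dimers differ in the mismatches they recognise, the ratio of MSH3 to MSH6 was examined per kilobase of gene length. It was 0.289 and 0.487 in controls 2 and 3 and 0.483 and 0.502 in cadmium 1 and 2. Control 3 fell between the cadmium libraries and control 2 was lower. With 2 controls, which of them is typical cannot be told. The cadmium minus control difference was 0.39 on the log2 scale (controls -1.41 ± 0.53, cadmium -1.02 ± 0.039, SD, n = 2 each; two-sided exact permutation test p = 0.667, where 2 against 2 libraries cannot go below 0.33). It was 0.015 without control 2 and 0.77 without control 3. The level of the ratio depends on the lengths used, which for MSH6 were 10770 merged exon bases against 4265 in its canonical transcript. The difference between groups was also 0.39 with counts not divided by length.

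PMS2 showed the lowest estimate of the 8. It is the endonuclease subunit of the main MutL dimer (ENSG00000122512, chromosome 7, 5970925 to 6009106, minus strand). It had normalized counts of 1051 and 914 in controls 2 and 3 and of 631 and 734 in cadmium 1 and 2. Both cadmium libraries were below both controls, and the log2 ratios of the 4 cadmium-to-control pairings ran from -0.74 to -0.32. The difference did not pass (log2 fold change -0.53, standard error 0.29, 95% interval -1.09 to 0.036, unadjusted p-value 0.0667, DESeq2 adjusted p-value 0.773).

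PMS2 has many partial copies on chromosome 7 that share sequence with it, so reads could be dropped as multi-mapping or assigned to a copy. The 12 copies with a read, PMS2CL and numbered PMS2P genes, summed to normalized counts of 1862 and 1921 in controls 2 and 3 and of 1141 and 1191 in cadmium 1 and 2. They took 61.9% to 67.8% of the reads of PMS2 and its copies together. With these reads added to PMS2 the log2 fold change was -0.64 (DESeq2 adjusted p-value 0.368). Each cadmium library had a lower sum than either control, and the part of read assignment in the PMS2 value was not tested.

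EXO1, the exonuclease of the pathway (ENSG00000174371, chromosome 1, 241847967 to 241895148, plus strand), was the most even of the members between groups. It had normalized counts of 3544 and 3179 in controls 2 and 3 and of 3202 and 3376 in cadmium 1 and 2. The groups overlapped, and the log2 fold change of -0.032 (standard error 0.25, 95% interval -0.52 to 0.46, DESeq2 adjusted p-value 1.00) turned to 0.029 with upper-quartile scaling.

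On the base excision side, OGG1 (ENSG00000114026, chromosome 3, 9749944 to 9788219, plus strand) had normalized counts of 1887 and 1434 in controls 2 and 3 and of 1356 and 1393 in cadmium 1 and 2. Both cadmium libraries were below both controls, by 0.042 log2 units where the gap was smallest and 0.48 where it was widest. The log2 fold change was -0.27 (standard error 0.29, 95% interval -0.84 to 0.29, DESeq2 adjusted p-value 1.00). It was -0.064 without control 2 and -0.47 without control 3.

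APEX1, the major abasic site endonuclease (ENSG00000100823, chromosome 14, 20455191 to 20457772, plus strand), showed the highest estimate. It had normalized counts of 10989 and 10608 in controls 2 and 3 and of 12612 and 12779 in cadmium 1 and 2. Libraries of a group differed by at most 0.051 log2 units, and the 4 pairings lay between 0.20 and 0.27. This was the tightest separation among the members, although the log2 fold change of 0.23 (standard error 0.24, 95% interval -0.23 to 0.70) did not pass, with a DESeq2 adjusted p-value of 1.00. APEX1 had a log2 fold change between 0.20 and 0.26 whichever library was left out.

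XRCC1, the scaffold that holds the ligation enzymes (ENSG00000073050, chromosome 19, 43543311 to 43580473, minus strand), had normalized counts of 1518 and 1342 in controls 2 and 3 and of 1142 and 1098 in cadmium 1 and 2. All 4 pairings were below zero, between -0.47 and -0.23 log2 units. The log2 fold change was -0.35 (standard error 0.27, 95% interval -0.87 to 0.17, DESeq2 adjusted p-value 0.959).

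PARP1, which senses strand breaks and builds poly(ADP-ribose) chains (ENSG00000143799, chromosome 1, 226360210 to 226408154, minus strand), had normalized counts of 22415 and 16470 in controls 2 and 3 and of 15170 and 16525 in cadmium 1 and 2. Control 2 was again high and control 3 lay within the cadmium range. The log2 fold change was -0.29 (standard error 0.28, 95% interval -0.85 to 0.26, DESeq2 adjusted p-value 1.00). It was -0.058 without control 2 and -0.51 without control 3.

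**Figure D2:**
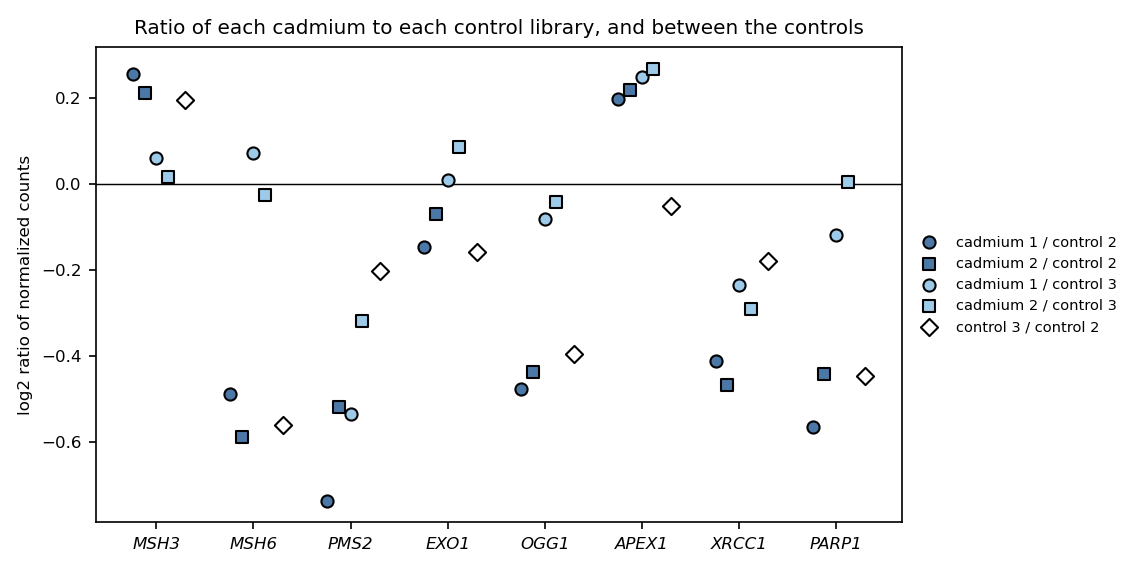
Log2 ratio of normalized counts for each cadmium library over each control library (circles, cadmium 1; squares, cadmium 2; dark, over control 2; light, over control 3) and of control 3 over control 2 (open diamonds). For PMS2, APEX1 and XRCC1 the pairings were on one side of zero and farther from it than the diamond, whereas MSH6, EXO1 and PARP1 crossed zero.

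Members differed in how their change compared with the gap within the control pair. For MSH3, MSH6, EXO1, OGG1 and PARP1 the log2 difference between the controls was larger in size than the fold change itself, which was so for 13386 of the 19834 genes tested. For PMS2, APEX1 and XRCC1 it was smaller. When control 3 was left out, so that control 2 was the lone control and was assumed to vary like the cadmium pair, DESeq2 called 5 members lower, MSH6, PMS2, OGG1, XRCC1 and PARP1, with adjusted p-values of 1.83e-04, 0.0208, 0.0296, 0.0567 and 2.38e-04. In that fit 31.2% of all genes tested were called. Without control 2, where 15.0% of genes were called, none of the members was, and the lowest adjusted p-value among them was 0.155, for APEX1. Without cadmium 1 or cadmium 2 none was called. Those fits called very few genes in the whole table, so they cannot set the members apart from other genes.

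The remaining genes of these pathways also held no calls, while their medians and their split above and below the controls differed from those of the members. Of 19 other mismatch repair genes, covering the partner subunits, the clamp PCNA, the clamp loader, the single-strand binding protein RPA, DNA polymerase delta and LIG1, none was called in either direction, with a median log2 fold change of -0.12 and both cadmium libraries below both controls for 8 and above them for 0, where 19.9% of all genes tested were below and 20.3% above. Of 23 other base excision repair genes, covering glycosylases, end-processing enzymes, polymerases and ligase, none was called in either direction, with a median of -0.11, and the cadmium pair was below both controls for 9 and above for 2, beside the same 19.9% and 20.3%. Over all genes tested 1.13% were called and the median log2 fold change was -0.023. Over those averaging 500 normalized counts or more the median was -0.066, with 24.9% below both controls and 17.0% above. The highest log2 fold changes of these lists were 0.19 for MLH3 and 0.41 for APEX2, genes named after their values were seen. By edgeR and limma-voom 0 of these 42 genes were called, with 2 and 1 at an unadjusted p-value below 0.05, and DESeq2 gave 1 such gene.

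Among the mismatch genes with the lowest p-values were PMS1, RFC2 and RPA3. PMS1, a minor MutL partner, had normalized counts of 1747 and 1166 in the controls and 1080 and 959 in the cadmium libraries (log2 fold change -0.52, standard error 0.32, DESeq2 adjusted p-value 0.888). RFC2, a clamp loader subunit, had 5898 and 5981 in the controls and 4504 and 4853 in the cadmium libraries (log2 fold change -0.34, DESeq2 adjusted p-value 0.937). Its controls were nearly equal and its groups did not overlap, which the choice of genes by p-value favours. RPA3, the smallest RPA subunit, had 1575 and 1737 against 1266 and 1343, with a log2 fold change of -0.34.

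The base excision genes with the lowest p-values were NEIL3, NEIL2, NUDT1 and SMUG1, and for each of these both cadmium libraries were below both controls. They were chosen by p-value in these same libraries, a choice that favours such separation. Both cadmium libraries were below for 19.9% of all genes tested and 24.9% of the more abundant ones. NEIL3, a glycosylase for oxidised bases that is linked to proliferating cells, had normalized counts of 1385 and 1685 in the controls and 983 and 1106 in the cadmium libraries (log2 fold change -0.56, unadjusted p-value 0.0481, DESeq2 adjusted p-value 0.715). NEIL2, another glycosylase for oxidised bases, had 1065 and 669 against 495 and 580 (log2 fold change -0.69, DESeq2 adjusted p-value 0.720). NUDT1, which clears oxidised guanine nucleotides from the precursor pool, had 1997 and 2570 against 1583 and 1555 (log2 fold change -0.54, DESeq2 adjusted p-value 0.726). SMUG1, which removes uracil, had 764 and 1104 against 619 and 691 (log2 fold change -0.51, DESeq2 adjusted p-value 0.894).

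**Figure D3:**
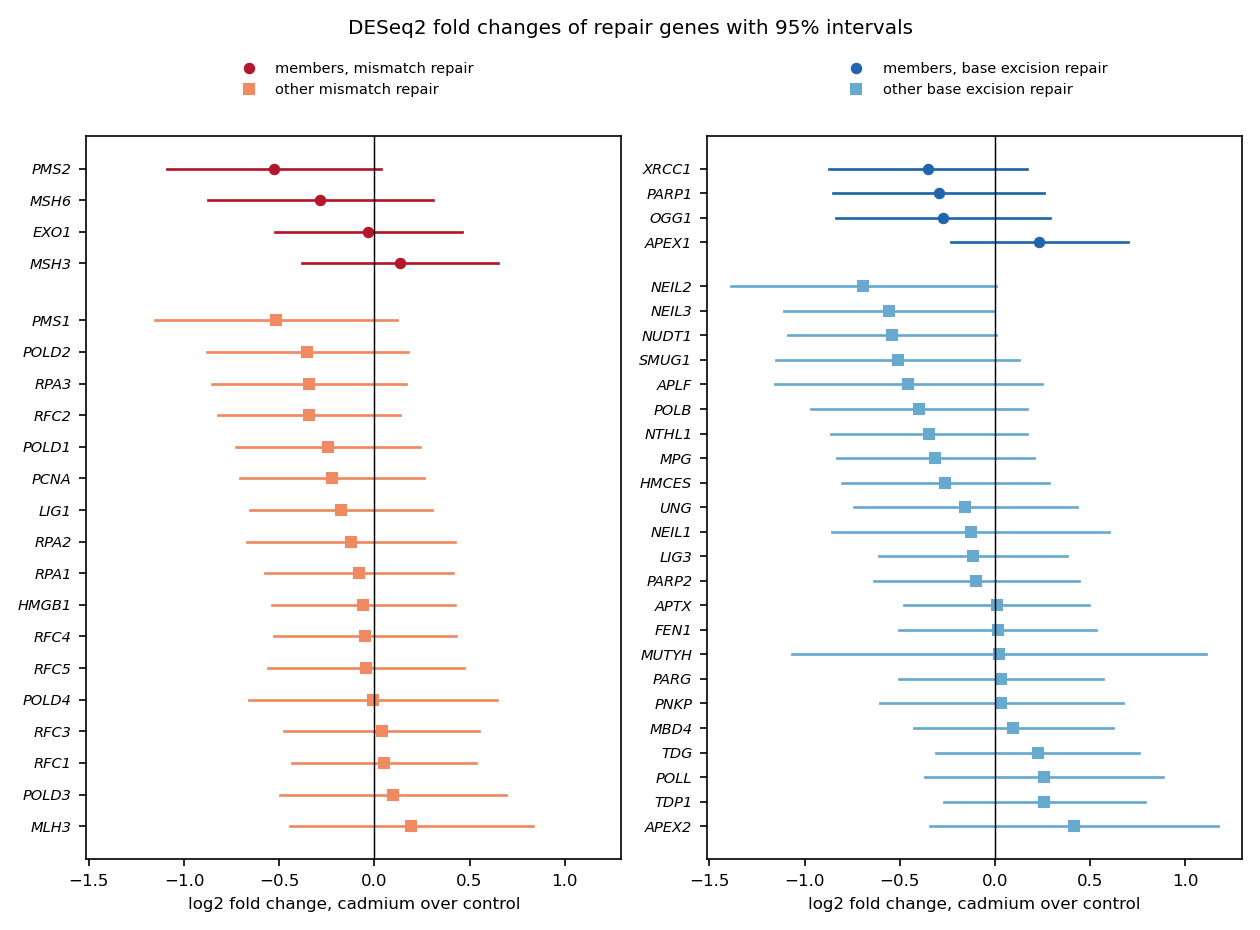
DESeq2 log2 fold change, cadmium over control, with its 95% interval for the 8 members (circles) and 40 other genes of the pathways (squares), mismatch repair on the left and base excision repair on the right. The interval of NEIL3 alone stayed below zero, and no gene passed the adjusted threshold.

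Many of these genes are expressed mainly in dividing cells, so 15 proliferation genes, among them MKI67 and TOP2A, were set beside them. None was called by DESeq2, with 1 at an unadjusted p-value below 0.05, their median log2 fold change was -0.16, and their summed level was 3811 and 3466 TPM in the controls and 3228 and 3435 TPM in the cadmium libraries. The part of proliferation in the repair gene values was not tested.

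The members were also set against the genes beside them on the chromosome. For each gene the 40 nearest genes averaging 100 normalized counts or more were taken, fewer near a chromosome end, and the log2 ratio of the group means, cadmium over control, was compared with their median. Around PMS2 (chromosome 7, 2537810 to 8262687) 37 of 40 neighbours were below zero, with a median of -0.32, so that PMS2 itself at -0.53 was 0.21 lower than its surroundings, with 6 neighbours lower still. Around MSH6 (chromosome 2, 44316281 to 55693863) the median was -0.28, the value of MSH6 itself, and the control 3 over control 2 ratio was -0.51 for the neighbours and -0.56 for MSH6. The other members had neighbours near zero, with medians between -0.075 and 0.026. XRCC1 was 0.38 lower than its neighbours, OGG1 0.24 lower and PARP1 0.22 lower, while MSH3 was 0.12 higher and APEX1 0.24 higher. The value of APEX1 is over 25 neighbours because the gene lies near the end of the annotated genes of its chromosome. The same offset for control 3 over control 2 was -0.46 for OGG1 and PARP1, 0.14 for MSH3, -0.21 for EXO1 and -0.050 for MSH6. These were larger in size than the cadmium offsets. For PMS2, XRCC1 and APEX1 it was -0.17, -0.22 and -0.011, smaller in size than the cadmium offset.

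The other repair genes on chromosome 7 were RFC2, RPA3, POLD2 and NUDT1, and with PMS2 all 5 had both cadmium libraries below both controls, where 39.9% of the 1013 genes tested on that chromosome did. These 5 were grouped after their values were seen. Their neighbours had medians between -0.40 and -0.28. RFC2, RPA3 and POLD2, a polymerase delta subunit, were within 0.072 log2 units of those medians, and NUDT1 was 0.21 lower. For control 3 over control 2 the same offset was 0.14 for RFC2, 0.047 for RPA3, -0.12 for POLD2 and 0.26 for NUDT1. The 45 repair genes on other chromosomes had a median log2 fold change of -0.097.

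**Figure D4:**
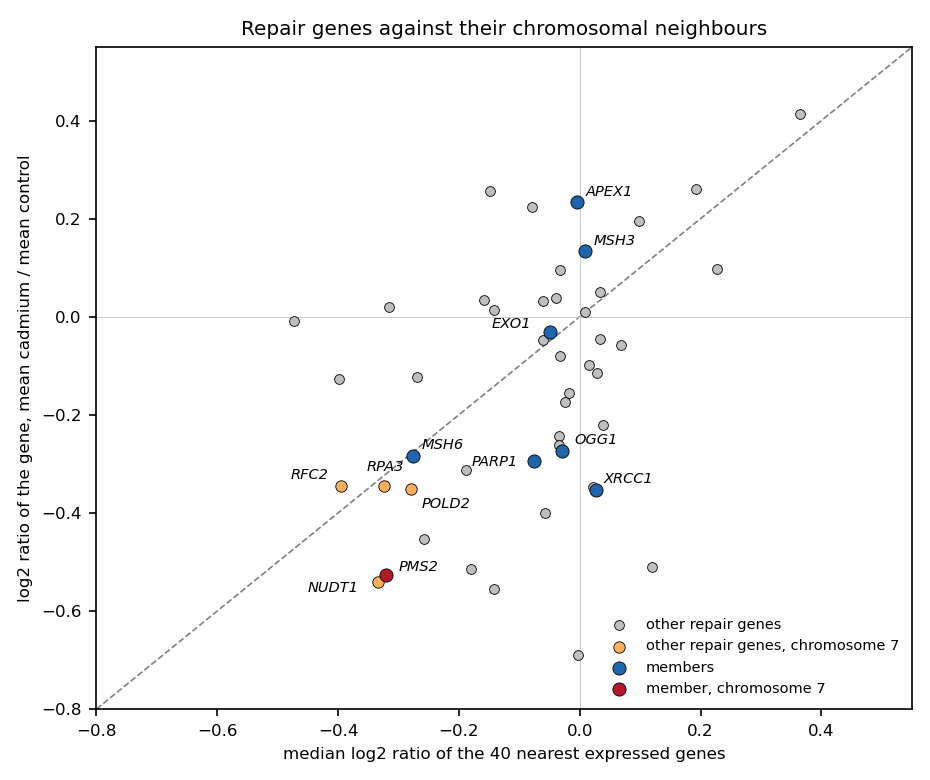
Log2 ratio of the group means, cadmium over control, for each repair gene (vertical axis) against the median of its nearest expressed neighbours on the same chromosome (horizontal axis), with the line of equality dashed. MSH6, RFC2, RPA3 and POLD2 sat close to the line, PMS2 and NUDT1 under it at the left, and XRCC1, OGG1 and PARP1 under and APEX1 above it near a neighbour median of zero.

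Levels between genes were compared only per length, as TPM from the deposited gene length, which merges the exons of all annotated transcripts. APEX1 was far above the rest, with 431 ± 12.6 TPM in control and 519 ± 9.22 TPM in cadmium (SD, n = 2 each), higher than 98.3% of the genes with a mean of at least 1 TPM. PARP1 followed with 79.1 ± 12.9 and 66.4 ± 2.22 TPM, then EXO1 with 61.1 ± 1.38 and 61.3 ± 0.634 TPM. MSH6 had 54.9 ± 12.0 and 46.6 ± 3.50 TPM, and XRCC1 39.1 ± 1.29 and 31.5 ± 1.72 TPM. MSH3, OGG1 and PMS2 were lowest, with 20.5 ± 3.05, 14.2 ± 1.99 and 11.9 ± 0.528 TPM in control and 22.9 ± 1.10, 12.1 ± 0.0938 and 8.43 ± 0.669 TPM in cadmium.

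The order of the 8 means was the same in both groups. EXO1 and MSH6 overlapped in the controls, and every other pair of neighbours in the order was separated in both groups. The order depended on the length used. PARP1 has merged exons of 18399 bases and a canonical transcript of 3978, and OGG1 8733 and 1630. With canonical lengths, an alternative added after seeing the data, APEX1 and PARP1 stayed first and second and PMS2 last, but MSH6 moved from place 4 to 3 and OGG1 from place 7 to 4 in control and to 5 in cadmium.

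**Figure D5:**
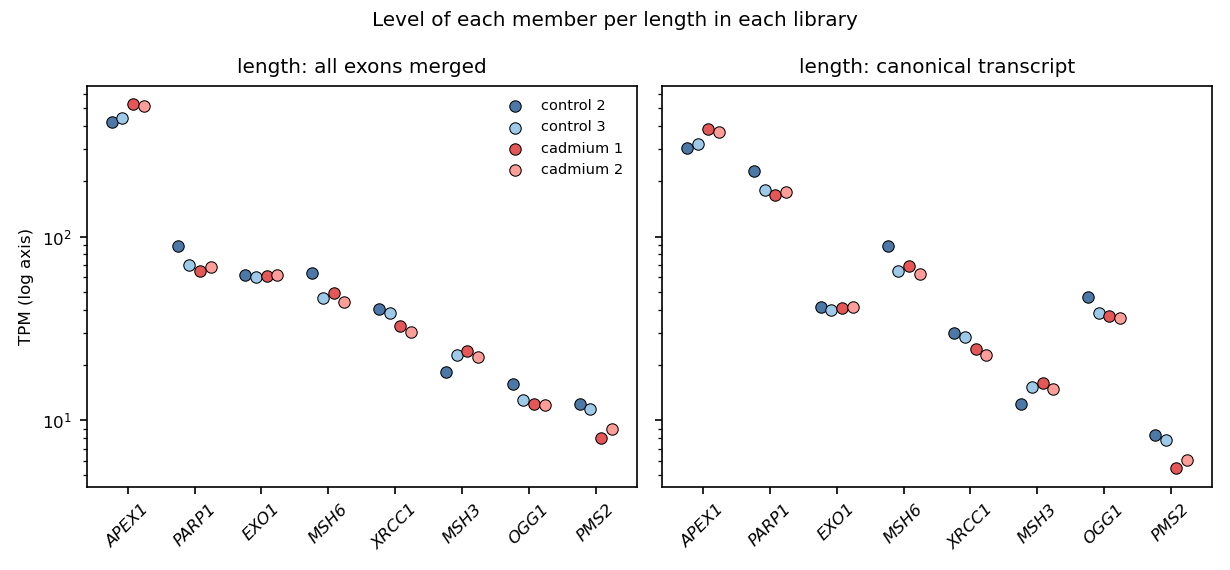
TPM of each member (log axis) in the 4 libraries, with the length taken from all merged exons on the left and from the canonical transcript on the right. APEX1 was highest and PMS2 lowest with either length, while OGG1 changed place.

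Counting left some members more exposed than others. Reads were counted without strand, and reads that overlap several genes are dropped by default. The shared part of the exons was 33.8% for MSH6, through FBXO11 on the opposite strand, 29.0% for OGG1, through CAMK1 and TADA3 on the opposite strand, and 28.2% for XRCC1, whereas PMS2 and PARP1 shared none and the other members 3.87% to 5.87%. Levels of MSH6, OGG1 and XRCC1 are the least certain for that reason, and without strand their reads cannot be told from those of a partner on the opposite strand.

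For 7 members the gene with the nearest profile over the 4 libraries was named, by Euclidean distance between centred log2(normalized count + 1) values among 12924 genes. It was PPFIA1 for MSH3 (distance 0.019), RNF227 for MSH6 (0.0054), MRPL28 for EXO1 (0.014), PLAAT3 for OGG1 (0.017), HMGN4 for APEX1 (0.020), NOMO3 for XRCC1 (0.025) and CDC34 for PARP1 (0.0078). Over the 8 members, between 45 and 398 genes were within a distance of 0.1, so 4 libraries single out no close companion.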

How the data were processed

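RNA-seq libraries of 2 control and 2 cadmium-resistant cultures were used. The authors trimmed adaptors with bbduk, aligned reads to hg38 with hisat2 and counted them per gene with featureCounts 2.0.1 and an Ensembl annotation. The deposited values are raw read counts, with strand ignored and each mate counted (70.6% to 71.5% of counts of 1 to 20 were even). The authors' gene lengths, deposited in the same table, are merged exon bases and gave TPM. Library totals were 51934729 to 61916007.

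All 33455 genes with a read were fitted in DESeq2 1.42.0 under R 4.3.3 (design: group, median-of-ratios size factors, two-sided Wald test, Benjamini-Hochberg adjustment after independent filtering, threshold 0.1). The study also used DESeq2. The filter left 19834 genes. Alternatives were edgeR 4.0.16 (quasi-likelihood) and limma 3.58.1 (voom), other scalings and filters, removal of a length trend, and leaving out each library. Halved counts and canonical transcript lengths were added after seeing the data. The scripts were tested on simulated data.

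Members and gene lists were chosen with earlier results of these data known. Named genes were the 8 members and the 4 with the lowest p-value in each other list, of those averaging 50 normalized counts or more. Symbols came from a table that matched 61369 identifiers. Promoter windows came from RefSeq and matched 8 of 8 members, taking the most upstream start. Ratios of normalized counts used a pseudocount of 1. Libraries are labelled biological replicates for the controls and replicates for cadmium, and p-values measure only the spread between them. Plots used Python 3.11.15. Binding and accessibility assays were not analysed here. Some genes that the naming rule selected are not reported here by name and are left out of the plots, while counts and medians over the lists include them.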

Additional observations from a re-analysis of the deposited data

How the results depend on the processing

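No paired analysis was possible because controls carry the numbers 2 and 3 in the table and 1 and 2 in the labels. The planned block by replicate was left out. The 119 higher and 106 lower genes became 0 and 0 with edgeR and with limma-voom. Leaving out 1 library gave 9 to 2677 higher and 4 to 3510 lower genes, the most without control 3 and the fewest without cadmium 2, and 0 to 5 higher and 0 to 12 lower among the 42 other repair genes, against 0 and 0 with all libraries. With all 4 libraries, no alternative brought a member past the threshold. Among the alternatives that change the fold change itself, the sign changed for EXO1, at 0.029 with upper-quartile factors and 0.017 relative to its neighbours. Leaving out 1 library gave log2 fold changes of 0.037 to 0.22 for MSH3, -0.55 to 0.022 for MSH6, -0.64 to -0.42 for PMS2, -0.12 to 0.047 for EXO1 (0.000786 without cadmium 1), -0.47 to -0.064 for OGG1, 0.20 to 0.26 for APEX1, -0.45 to -0.26 for XRCC1 and -0.51 to -0.058 for PARP1, and a difference of 0.015 to 0.77 for the MSH3 to MSH6 ratio. With 1 library left in a group, that library was assumed to vary like the other group. The fits also tested different numbers of genes. Calls among the 42 other repair genes were most frequent without control 3, the fit that called the most genes of the whole table. Whether these genes were called more often than others in the same fit was not tested. The causes of the shifts between fits were not tested. Members had at least 634 reads in a library.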

Other observations

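Several partial copies of PMS2 on chromosome 7 were expressed well enough to be followed one by one. PMS2CL (6710128 to 6753862) had normalized counts of 690 and 857 in the controls and 462 and 490 in the cadmium libraries (log2 fold change -0.70, standard error 0.30, DESeq2 adjusted p-value 0.487). PMS2P1 (100300024 to 100336307), on the other arm of the chromosome, had 654 and 540 against 325 and 359 (log2 fold change -0.80, standard error 0.31, DESeq2 adjusted p-value 0.353). PMS2P3 had a log2 fold change of -0.44, and PMS2P4 had 110 and 101 against 60.7 and 81.0. In each of these 4 copies both cadmium libraries were below both controls, as in PMS2, and none passed the threshold. On chromosome 7 this held for 39.9% of the genes tested. Of the copies with fewer reads, PMS2P5, PMS2P7 and PMS2P13 were also below both controls. PMS2P2, PMS2P6, PMS2P12 and PMS2P14 overlapped the controls, and PMS2P11 was above them. Their division of reads is uncertain because the copies are alike in sequence.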
